A study of Homo sapiens with 42 samples.

Results

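The ZNF zinc finger genes expressed in HAP1 cells were described here across all 14 groups of the experiment. A gene was a member if its symbol was ZNF followed by a number (with or without a letter) and its mean level in WT cells under DMSO was at least 5 FPKM (fragments scaled to transcript length and to library size). ZNF473 was left out by the same rule. Of 529 such symbols in the table, 153 were members, and the table lists 26228 genes in all. The members just inside the limit were ZNF783 at 5.02 FPKM, ZNF280C at 5.06 and ZNF211 at 5.07, and those just outside were ZNF668 at 4.94, ZNF57 at 4.94 and ZNF148 at 4.97. The members were thus chosen by their FPKM in the WT DMSO libraries, so comparisons with that group are given here as descriptions only.

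HAP1 is a near-haploid human line derived from a chronic myeloid leukaemia. The 42 libraries of polyadenylated RNA came from HAP1 WT and from HAP1 carrying CDK7 C312S, a substitution of the cysteine that covalent inhibitors of the kinase CDK7 bind. Cells of each line were treated for 24 h with DMSO, with a compound labelled YKL at 500 nM or 2 µM, with THZ531 (which binds CDK12 and CDK13 covalently), with THZ1 (a covalent inhibitor of CDK7 with activity on CDK12 and CDK13 too), or with a combination at 500 nM or 2 µM. The series is about a selective covalent CDK7 inhibitor, which YKL is taken to be. The label of the combination names no compound, and its column names carry both the THZ531 and the YKL codes, so it is read here as THZ531 with YKL. Doses of THZ531 and THZ1 are absent from the labels, which also do not say whether the C312S line is a single clone. Each group held 3 libraries, which the labels do not tie to separate cultures, so p-values measure the spread between these libraries only. An FPKM table cannot show the substitution itself. The leukaemia named in the labels is hardly seen in the defining blood cell markers: 2 of 16 exceeded 1 FPKM in any group, and the 16 summed to 3.18 to 5.32 FPKM by group. These 2 were TAL1, at 1.02 to 2.90 FPKM by group mean, and KIT, at 1.00 to 1.47. PTPRC stayed at or below 0.12 FPKM in every group mean. Of 14 epithelial and fibroblast markers, 6 exceeded 1 FPKM in some group. By group mean VIM was at 215 to 501 FPKM, KRT18 at 25.3 to 40.5 and FN1 at 4.63 to 13.9. THY1 was at 11.4 to 16.6 FPKM in WT and 0.844 to 1.34 in C312S. KRT8 was at 0.631 to 3.07 FPKM and COL1A1 at 0.434 to 2.63. COL1A2, EPCAM and CDH1 stayed below 0.04 FPKM.

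Most ZNF genes encode proteins with tandem C2H2 zinc fingers, short folds that each hold a zinc ion and together read a DNA sequence. Many of them, above all those in the clusters on chromosome 19, also carry a KRAB domain, which recruits the corepressor TRIM28 and through it the histone methyltransferase SETDB1 and HP1 proteins, and so silences transposable elements and genes. Others have no KRAB domain and act in ribosome assembly, mitosis, RNA processing or general transcription. CDK7 activates the cell cycle kinases and, within TFIIH, phosphorylates RNA polymerase II near promoters, while CDK12 and CDK13 act during elongation.

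The members' coding sequences in GENCODE release 29 were searched for a pattern of the KRAB A box and for C2H2 fingers. The KRAB pattern was found in 66 members and not found in 85, and 2 members (ZNF252P and ZNF271P) have no coding sequence. It misses diverged boxes, so absence of the pattern is not absence of the domain. Members with the pattern had a median of 11 fingers and those without it 6, over a range of 0 to 35 fingers, with ZNF142 the highest. Chromosome 19 held 44 members, 28 of them with the pattern, and chromosome 7 held 18. Transcripts of members with the pattern had a lower G and C content, with a median of 42.6% against 51.4% in those without it.

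The upstream promoter sequences of 5 members are shown because these genes are among those whose response to YKL, added to THZ531, differed most between the lines. Each is the 250 bases before the gene's start in the RefSeq promoter table (GRCh38.p14), written 5′ to 3′ on the gene's own strand. Capitals mark matches, on either strand, to the letters searched.
ZNF146 (chr19:36214856-36215105, plus strand): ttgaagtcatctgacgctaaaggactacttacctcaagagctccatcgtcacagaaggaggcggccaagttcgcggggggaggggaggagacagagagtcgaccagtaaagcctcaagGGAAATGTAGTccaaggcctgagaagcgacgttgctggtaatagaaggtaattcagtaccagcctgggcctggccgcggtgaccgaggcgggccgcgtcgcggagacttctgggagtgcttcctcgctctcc
ZNF692 (chr1:248859086-248859335, minus strand): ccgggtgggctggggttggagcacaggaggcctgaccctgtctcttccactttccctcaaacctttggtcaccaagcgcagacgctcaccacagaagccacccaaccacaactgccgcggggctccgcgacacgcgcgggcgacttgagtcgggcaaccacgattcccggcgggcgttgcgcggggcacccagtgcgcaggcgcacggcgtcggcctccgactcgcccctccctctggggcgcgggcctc
ZNF589 (chr3:48240854-48241103, plus strand): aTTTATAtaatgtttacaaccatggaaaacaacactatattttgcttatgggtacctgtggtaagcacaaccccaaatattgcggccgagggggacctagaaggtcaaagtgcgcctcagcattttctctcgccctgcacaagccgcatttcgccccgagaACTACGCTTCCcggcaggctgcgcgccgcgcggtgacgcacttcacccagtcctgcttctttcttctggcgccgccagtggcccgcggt
ZNF226 (chr19:44164850-44165099, plus strand): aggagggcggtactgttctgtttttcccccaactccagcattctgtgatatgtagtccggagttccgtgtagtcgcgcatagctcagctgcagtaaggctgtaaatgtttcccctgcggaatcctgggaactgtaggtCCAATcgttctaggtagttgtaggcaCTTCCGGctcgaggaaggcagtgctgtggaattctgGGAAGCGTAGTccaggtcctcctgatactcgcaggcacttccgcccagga
ZNF32 (chr10:43648882-43649131, minus strand): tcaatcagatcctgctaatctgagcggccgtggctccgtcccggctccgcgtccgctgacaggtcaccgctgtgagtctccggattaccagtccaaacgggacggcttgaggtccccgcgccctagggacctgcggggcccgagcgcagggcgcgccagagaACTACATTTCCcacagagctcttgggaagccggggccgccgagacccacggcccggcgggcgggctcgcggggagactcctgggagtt
ACTAC followed, after any 2 bases, by TTCC occurs once in the promoters of ZNF146, ZNF589, ZNF226 and ZNF32 and not in that of ZNF692. These letters were added to the search after the 5 sequences had been read. They overlap ACTACAA, a core of the element bound by ZNF143, which was also searched. In the 135 members that the table holds, the spaced letters were present in 13.3% of promoters, against 2.32% of 9485 promoters of tested genes and 1.17% of all 27305. The 18 members behind that 13.3% include ZNF146, ZNF589, ZNF226 and ZNF32, from which the letters were read. Part of the share was thus fixed in advance, and it is no test of the motif. ACTACAA was present in 8.15% of members, 3.68% of tested genes and 2.64% of all. The ETS factor core CCGGAAG was found in 34.8% of members, 16.2% of tested genes and 8.82% of all, among them ZNF226. CCAAT, a box read by NF-Y, was in 39.3%, 35.5% and 33.0% and also matched in ZNF226. TATAAA was in 5.19%, 4.85% and 11.1%, with a match in ZNF589. GCGCATGC, a core of the NRF1 site, was in 6.67%, 4.90% and 2.81%, and the YY1 site AAGATGGCG in 2.22%, 1.11% and 0.641%. A match describes the letters and not binding.

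The highest member in WT DMSO was ZNF207, which binds the spindle checkpoint protein BUB3, at 172, 162 and 165 FPKM in the 3 libraries. It was followed by ZNF593, a ribosome assembly factor, at 92.7, 87.3 and 89.8 FPKM, and by ZNF664 at 74.9, 77.4 and 78.6 FPKM. ZNF146, whose protein is almost only zinc fingers, was at 63.7, 57.7 and 58.0 FPKM, and ZNF511 at 48.2, 44.4 and 41.5 FPKM. ZNF207 was also the highest member in each of the other 13 groups, with means from 152 ± 4.7 FPKM (SD, n = 3) in WT YKL 2 µM to 257 ± 7.2 in C312S DMSO. Most members were expressed near the limit: the median of the 153 member means was 8.57 FPKM in WT DMSO and lay between 7.72 (WT THZ1) and 9.95 (C312S DMSO) in every group. Together the members made up 0.290% to 0.402% of the summed FPKM, and no member was listed at 0 in any library.

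The scale of the libraries bears on every count below. Summed FPKM averaged 794374 in the libraries labelled C312S DMSO and 852330 in C312S THZ1, against 455948 to 628311 in the other groups. Spike-in transcripts stood highest against genes in WT THZ1, by 1.82 on the log2 scale relative to the average library, then in C312S THZ1 at 0.98 and C312S DMSO at 0.76, and were between -0.80 and 0.49 elsewhere. When every library was divided by its summed FPKM, the median log2 change of all tested genes lay between -0.36 and 0.36 among comparisons, and with scaling to the spike-ins between -1.99 (WT THZ1 against DMSO) and 1.27 (C312S THZ531 against DMSO). Changes are therefore given as deposited, which leaves the median gene near 0, and the split of the members' rises and falls under both other scalings stands beside each count of them. Those splits carry the shift of all tested genes. The share of the calls over all tested genes that were higher is therefore given as their background. With spike-ins in WT THZ1 against DMSO, 97.1% of all tested genes were called and 0.257% of these calls were higher. Nothing here tells fewer cells from less RNA per cell.

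**Figure D1:**
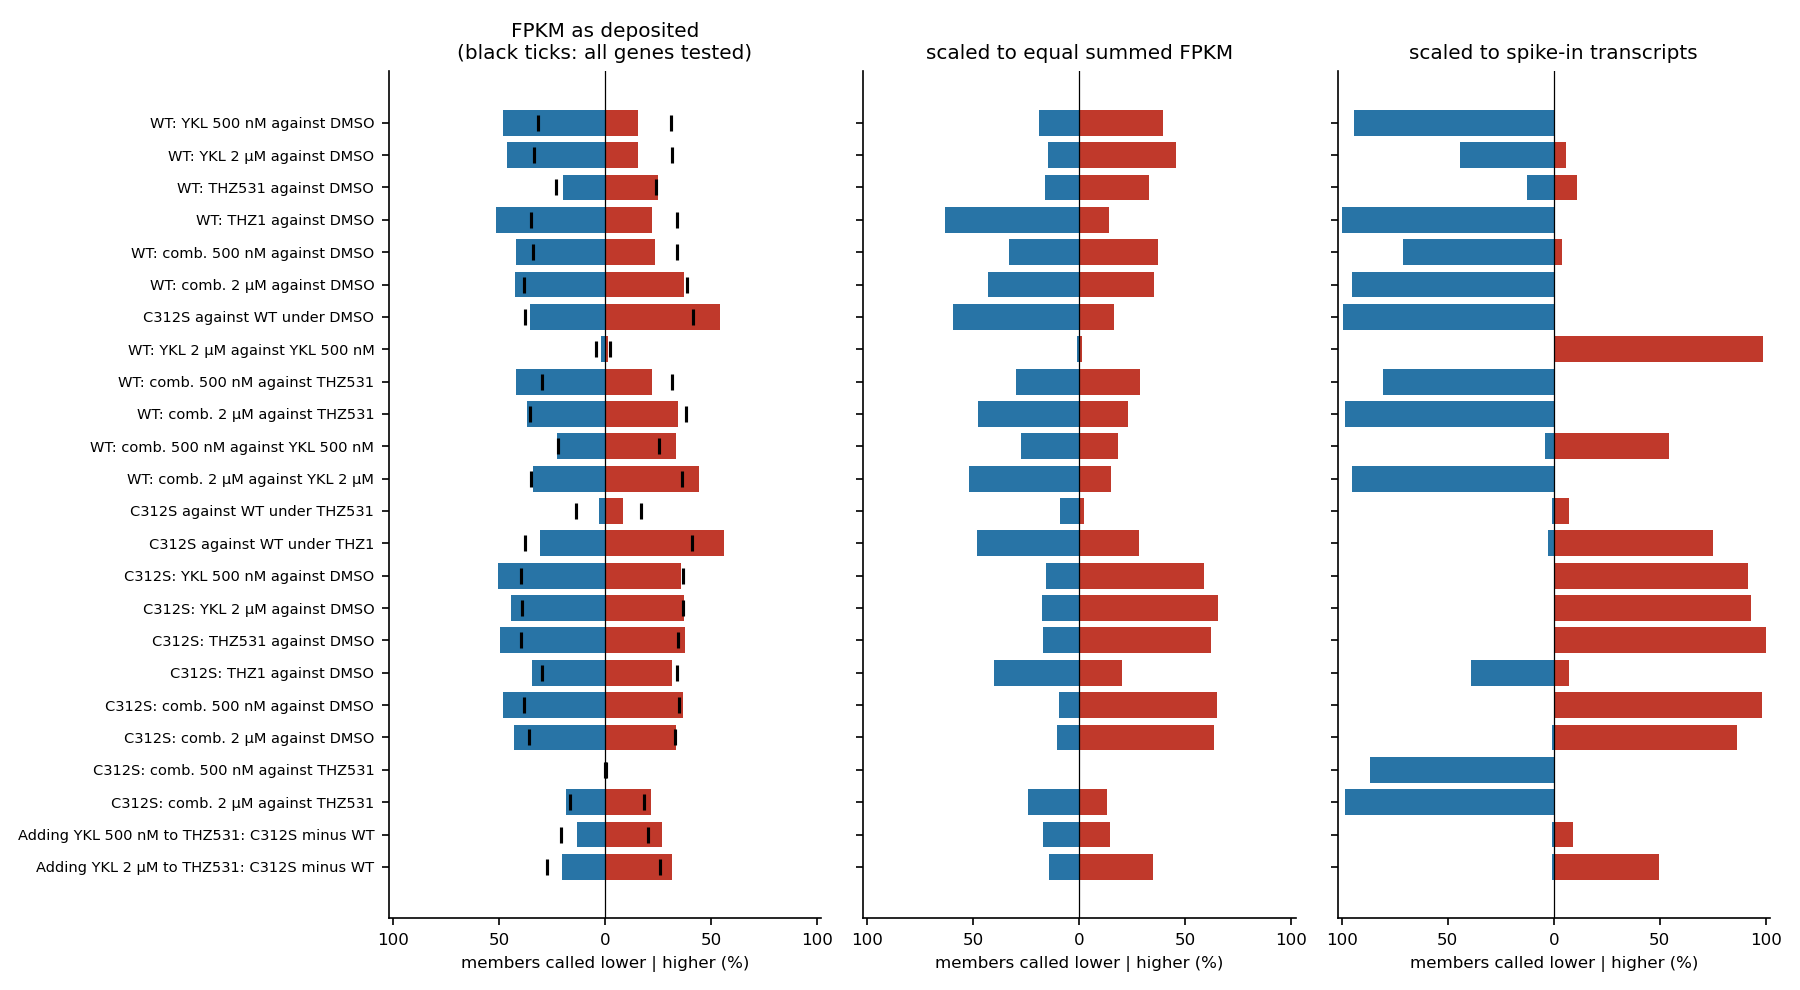
Share of the 153 members called higher (red, to the right) or lower (blue, to the left) at a limma adjusted p under 0.05 in each of 24 comparisons, in percent, for FPKM as deposited and under 2 other scalings. Black ticks, drawn for the deposited scale only, give the share of all 12816 tested genes. In the deposited scale 22 of the 48 shares lie within 5 percentage points of the ticks, and the largest gap is 16.8 points. These 48 include the comparisons with WT DMSO, which chose the members and are descriptions only. Under spike-in scaling the number called runs from 12 (C312S against WT under THZ531) to 153 (all lower in WT THZ1 against DMSO). Of all tested genes, 18% and 97.1% were called in these 2 comparisons under spike-in scaling.

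Adding YKL to THZ531 in WT cells lowered more members than it raised at the lower dose and split them evenly at the higher dose, in the deposited scale. Each combination was compared with THZ531 alone by limma with Benjamini-Hochberg adjustment over all 12816 tested genes, as in every comparison below. At 500 nM, 34 members rose and 64 fell, against 31.5% of all tested genes higher and 29.7% lower. The split was 44 and 46 after scaling to summed FPKM and 1 and 123 after spike-in scaling. Of the calls over all tested genes, 64.7% and 9.23% were higher under these 2 scalings. At 2 µM, 53 rose and 56 fell, against 38.3% of all genes higher and 35.3% lower, and the split was 35 and 73 with summed FPKM and 1 and 151 with spike-ins. Over all tested genes, 42.2% of the calls were higher with summed FPKM and 2.03% with spike-ins. The median log2 change of the members was -0.11 at 500 nM and 0.03 at 2 µM, against 0.01 and 0.02 for all tested genes. The largest rises and falls named per comparison of 2 groups were picked among members whose libraries did not overlap. Lack of overlap was thus fixed in advance for them and is no support. Libraries were apart in 67.3% of all tested genes at 500 nM and 74.9% at 2 µM (71.2% and 76.5% of members). In C312S these shares of all tested genes were 11.9% and 47.2%.

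ZNF146 fell the most at 500 nM. Its level under THZ531 was 54.4, 56.4 and 57.1 FPKM in WT cells, 25.8, 28.4 and 27.8 FPKM with the 500 nM combination, and 22.0, 22.3 and 21.9 FPKM with the 2 µM combination. The groups did not overlap, and the log2 change was -1.01 ± 0.05 (SE) at 500 nM (limma adjusted p = 3.19e-16) and -1.30 ± 0.05 at 2 µM (adjusted p = 1.87e-19). In C312S cells the THZ531 libraries were at 58.7, 56.1 and 61.0 FPKM and the 500 nM combination at 56.5, 51.1 and 45.3 FPKM. These overlap, and the log2 change of -0.20 was not called (limma adjusted p = 0.101). At 2 µM the C312S libraries were at 44.1, 40.4 and 41.8 FPKM, all below THZ531, a change of -0.47 (limma adjusted p = 1.37e-07). The difference between the lines was 0.80 ± 0.08 at 500 nM (limma adjusted p = 7.43e-10) and 0.84 ± 0.08 at 2 µM (adjusted p = 1.83e-10).

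ZNF692, a zinc finger protein also known as AREBP, gave the same order of groups. Under THZ531 its WT libraries were at 11.6, 10.5 and 11.9 FPKM, with the 500 nM combination at 4.80, 5.60 and 5.47 and with the 2 µM combination at 4.49, 3.13 and 4.38. The C312S libraries were at 12.4, 11.6 and 10.8 FPKM under THZ531, 10.4, 10.5 and 11.4 FPKM with 500 nM, and 9.20, 9.45 and 7.62 FPKM with 2 µM. WT groups did not overlap, and in C312S only the 2 µM libraries lay wholly below THZ531. The WT change was -0.97 ± 0.08 (limma adjusted p = 1.20e-11) at 500 nM and -1.31 ± 0.08 (adjusted p = 4.19e-15) at 2 µM. The difference between the lines was 0.87 ± 0.12 at 500 nM (limma adjusted p = 4.16e-07) and 0.94 ± 0.12 at 2 µM (adjusted p = 7.43e-08).

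ZNF589, a KRAB zinc finger gene, went from 27.6, 26.4 and 26.6 FPKM under THZ531 in WT cells to 13.77, 14.02 and 13.90 FPKM at 500 nM and 10.1, 8.96 and 10.9 FPKM at 2 µM. No WT library with the combination reached any WT library with THZ531 alone. In C312S cells THZ531 gave 28.5, 26.8 and 25.5 FPKM, the 500 nM combination 24.7, 26.2 and 25.6, and the 2 µM combination 23.1, 23.1 and 20.7. The change in WT was -0.90 ± 0.05 (limma adjusted p = 1.48e-15) and -1.35 ± 0.05 (adjusted p = 2.97e-20), and in C312S -0.07 (adjusted p = 0.760) and -0.26 (adjusted p = 0.000258). The lines differed by 0.83 ± 0.07 at 500 nM (limma adjusted p = 1.49e-10) and by 1.09 ± 0.07 at 2 µM (adjusted p = 2.49e-13).

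ZNF142, with 35 fingers, fell at 2 µM in WT from a mean of 6.49 ± 0.12 FPKM (SD, n = 3) to 2.56 ± 0.33, a log2 change of -1.08 ± 0.06 (limma adjusted p = 8.31e-16). In C312S it was at 6.61 ± 0.12 and 5.83 ± 0.52, and the lines differed by 0.92 ± 0.09 (limma adjusted p = 6.43e-10). ZNF367 fell at 500 nM in WT from 6.05 ± 0.66 to 3.30 ± 0.36 FPKM, a log2 change of -0.71 ± 0.09 (limma adjusted p = 1.16e-07). ZNF202, a KRAB gene, was among the 4 largest positive differences between the lines at 500 nM, with 0.64 ± 0.08 (limma adjusted p = 1.49e-07). Its WT mean was 6.24 FPKM under THZ531 and 3.87 with the combination, and its C312S means were 6.44 and 6.83.

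The largest rise was in ZNF226, a chromosome 19 KRAB gene with 17 fingers. Its WT libraries were at 5.82, 6.92 and 6.23 FPKM under THZ531, 12.7, 14.1 and 10.8 FPKM with the 500 nM combination and 16.7, 19.7 and 16.7 FPKM with the 2 µM combination. The 3 groups did not overlap, and the log2 change was 0.88 ± 0.12 (limma adjusted p = 7.87e-08) and 1.35 ± 0.12 (adjusted p = 5.05e-12). Under spike-in scaling the 2 µM rise was 0.27 (adjusted p = 0.0476). In C312S the libraries were at 6.59, 6.94 and 7.36 FPKM under THZ531, 7.99, 7.57 and 7.53 at 500 nM, and 9.69, 7.78 and 10.3 at 2 µM. The C312S combinations lay above THZ531 without overlap too, but the change of 0.13 at 500 nM was not called, and that of 0.36 at 2 µM (limma adjusted p = 0.0153) turned to -0.34 under spike-in scaling. It lost its call without C312S THZ531 replicate 1 or without replicate 1 or 3 of the 2 µM combination (adjusted p from 0.0551 to 0.0999). The difference between the lines was -0.76 ± 0.16 at 500 nM (limma adjusted p = 0.000359) and -0.99 ± 0.16 at 2 µM (adjusted p = 6.63e-06).

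ZNF32 rose in WT cells from 12.4, 13.4 and 13.5 FPKM under THZ531 to 16.0, 23.7 and 19.4 FPKM at 500 nM and 26.8, 31.5 and 28.8 FPKM at 2 µM. The log2 change was 0.54 ± 0.10 (limma adjusted p = 2.92e-05) and 1.09 ± 0.10 (adjusted p = 2.92e-11), and under spike-in scaling it was 0.11 and -0.05, with neither called. C312S libraries were at 18.8, 14.8 and 17.1 FPKM under THZ531 and 20.2, 20.8 and 22.0 FPKM at 2 µM. The lines differed by -0.46 ± 0.14 at 500 nM (limma adjusted p = 0.00957) and -0.79 ± 0.14 at 2 µM (adjusted p = 2.50e-05). Neither difference was called under spike-in scaling (adjusted p = 0.163 and 0.0919), and without the second WT library of the 500 nM combination, the highest of its group, the first had an adjusted p of 0.0549 (0.0554 with GC content and length trends removed).

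Smaller rises at 500 nM in WT were those of ZNF580 (20.0 to 29.2 FPKM) and ZNF211 (6.73 to 9.52 FPKM), with log2 changes of 0.53 and 0.44. Neither was called under spike-in scaling. At 2 µM ZNF512 rose from 28.5 to 46.6 FPKM and ZNF277 from 7.80 to 13.2 FPKM in WT, with log2 changes of 0.69 and 0.68 that turned to -0.47 and -0.41 under spike-in scaling. In C312S, ZNF277 was at 6.24 FPKM under THZ531 and 6.49 at 2 µM, and the lines differed by -0.64 ± 0.14 (limma adjusted p = 0.000384). The same difference was found for ZNF585A, at -0.64 ± 0.20 (adjusted p = 0.00890), which went from 6.37 to 10.1 FPKM in WT and was at 6.11 and 5.87 FPKM in C312S. Neither of these differences was called under spike-in scaling.

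**Figure D2:**
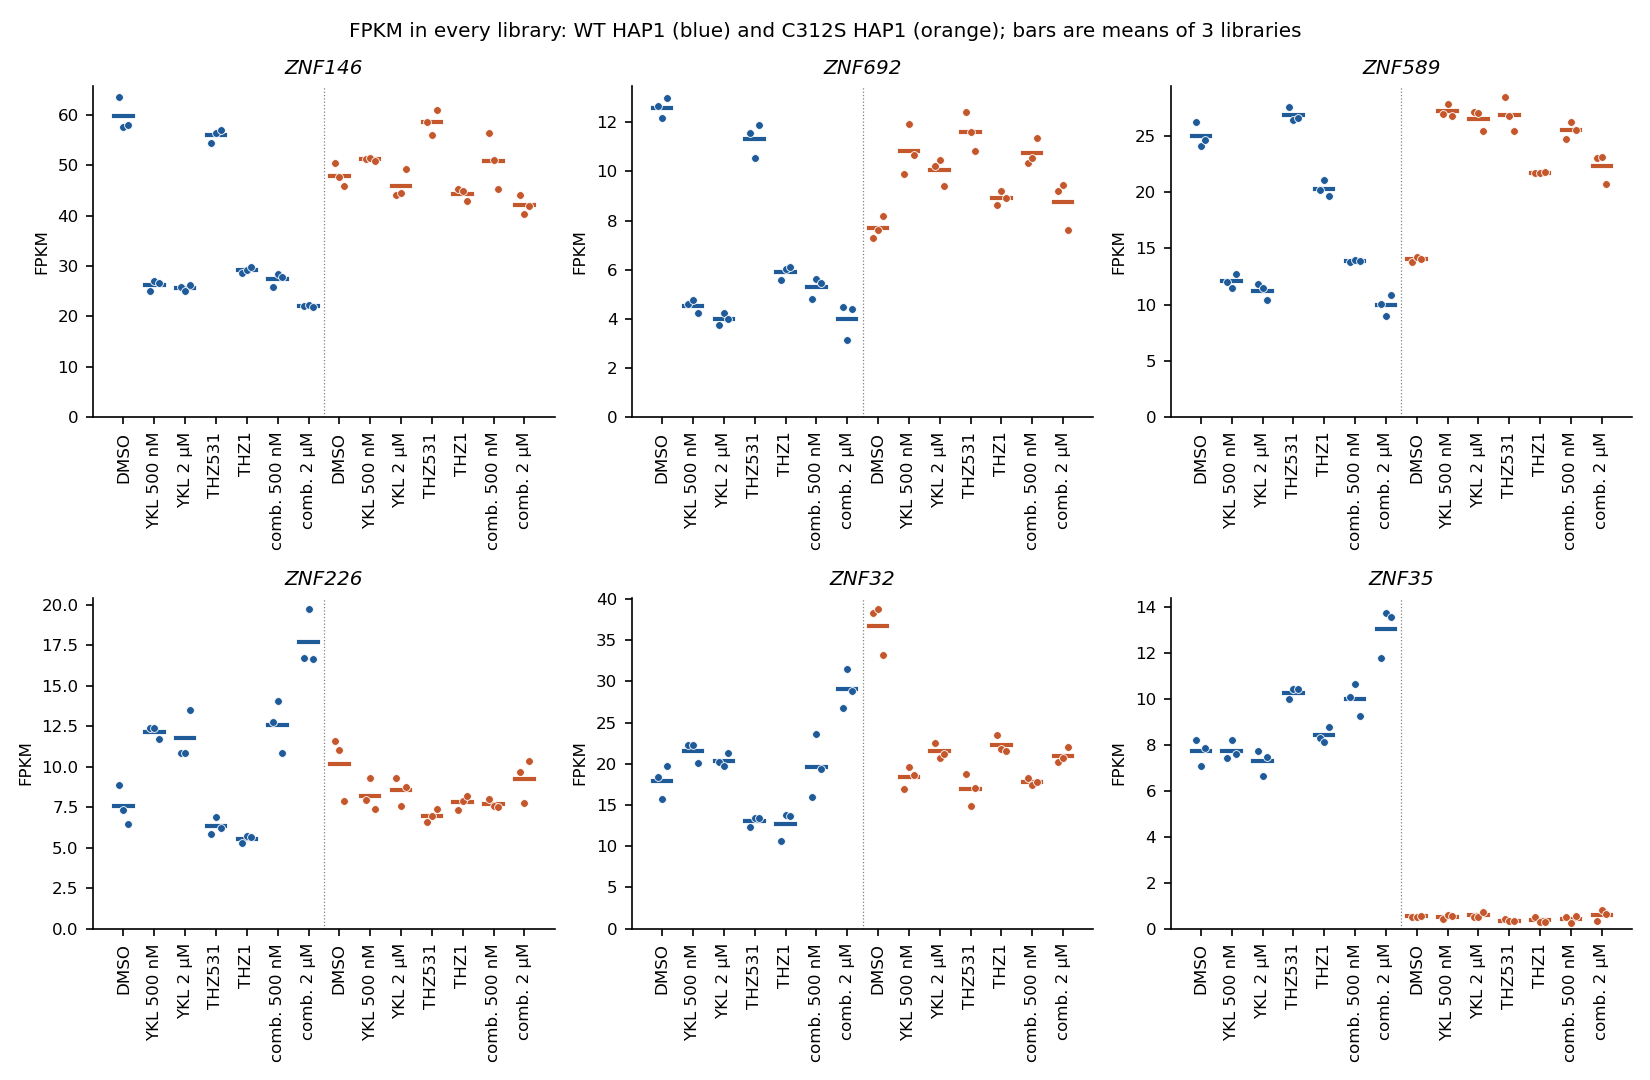
FPKM of 6 members in every library (points) and the mean of 3 libraries (bars) by treatment, WT in blue and C312S in orange. ZNF146, ZNF692 and ZNF589 are low in WT wherever YKL was given. With the combination they are higher in C312S than in WT at each dose. At the higher dose of the combination all 3 nevertheless lie below THZ531 alone in C312S. Low levels are not limited to YKL: ZNF146 is also low in WT THZ1 and ZNF589 in C312S DMSO. ZNF35 is under 1 FPKM in all C312S libraries.

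Over all members, 0 changed in C312S cells when YKL was added to THZ531 at 500 nM, by limma with adjusted p, where 0.39% of all tested genes were higher and 0.187% lower. At an unadjusted p under 0.05, 13 members differed, and the smallest adjusted p was 0.101. Under spike-in scaling 133 members were lower and 0 higher. With that scaling 78.7% of all tested genes were called, and 0.238% of these calls were higher. At 2 µM, 33 members rose and 28 fell in C312S, against 18.5% of all genes higher and 16.3% lower, with 20 and 37 under summed FPKM and 0 and 151 with spike-ins. Over all tested genes, 38% of the calls were higher with summed FPKM and 0.314% with spike-ins. The largest rise was in ZNF576, with a log2 change of 0.56 ± 0.08 (limma adjusted p = 3.16e-06), then ZNF584 at 0.40 and ZNF616 at 0.38, and under spike-in scaling these 3 were -0.14, -0.31 and -0.33. The largest falls were ZNF146 at -0.47, ZNF107 at -0.45, ZNF92 at -0.39 and ZNF692 at -0.37. ZNF92 lost its call without replicate 2 of C312S THZ531 (adjusted p = 0.0977) or of the C312S 2 µM combination (adjusted p = 0.102).

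The difference between the lines was itself called for 61 members at 500 nM, 41 with a higher change in C312S and 20 with a lower change, against 20.5% and 21.0% of all tested genes. With summed FPKM these were 22 and 26 (36.4% of the calls over all tested genes higher), and with spike-ins 14 and 1 (59.8%). At 2 µM it was called for 79 members, 48 higher and 31 lower, against 25.9% and 27.2% of all genes. The split was 53 and 22 under summed FPKM (56.2% of the calls over all genes higher) and 76 and 1 under spike-ins (91.2%). Among the 238 other tested ZNF symbols below 5 FPKM, the counts were 23 higher and 76 lower at 2 µM, the opposite balance (28 and 62 with summed FPKM, but 44 and 10 with spike-ins). The difference between members and those genes was not tested, and the expression limit separates them by construction.

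**Figure D3:**
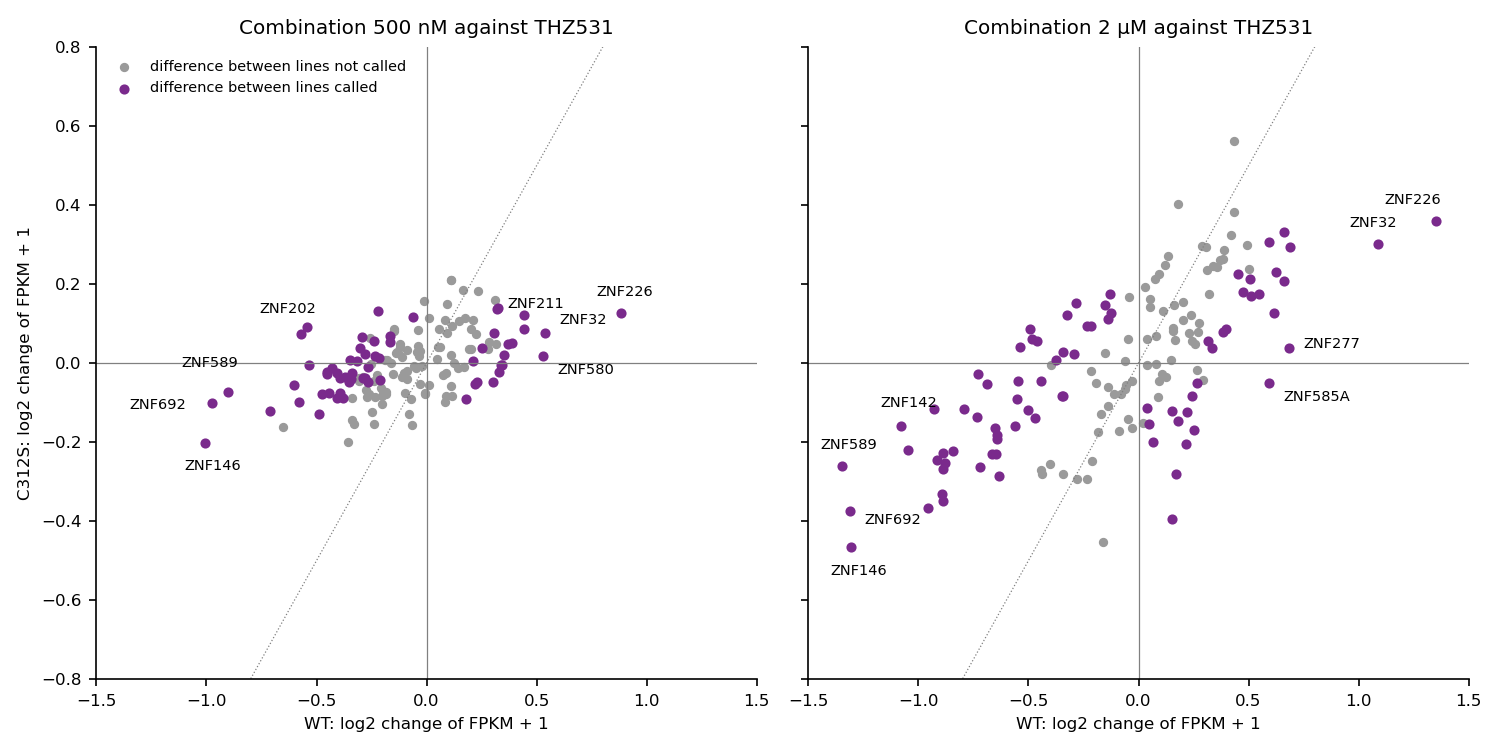
Log2 change of each of the 153 members when YKL was added to THZ531, WT on the x axis and C312S on the y axis, at 500 nM (left) and 2 µM (right); purple marks members whose change differed between the lines, and the dotted line marks equal change. Points spread along the x axis and stay near 0 on the y axis at 500 nM, and ZNF146, ZNF692, ZNF589 and ZNF226 lie farthest out.

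Members with known roles in other processes moved in both directions. Under spike-in scaling all of the rises named for the following 3 lists turned to falls. These falls were of 0.46 to 0.88 in WT and of 0.48 to 0.52 in C312S. In the 2 µM combination against THZ531, 38.3% of all tested genes were higher and 35.3% lower in WT, and 18.5% and 16.3% in C312S, beside which the counts of the lists are to be read. Of the calls over all genes, 42.2% in WT and 38% in C312S were higher with summed FPKM. With spike-ins these shares were 2.03% and 0.314%. Of 7 RNA and ribosome members, 3 rose and 2 fell in that comparison in WT, which became 3 and 4 with summed FPKM and 0 and 7 with spike-ins. ZNF593 rose from 89.5, 88.0 and 91.7 FPKM to 124, 106 and 123 FPKM, with no overlap (log2 change 0.38, limma adjusted p = 4.48e-05). ZNF622, which matures the large ribosomal subunit, rose from a mean of 27.9 to 36.3 FPKM (log2 change 0.37). ZNF346, which binds double-stranded RNA, changed by 0.32. ZNF598, the ubiquitin ligase of collided ribosomes, fell from 29.005, 25.069 and 25.139 FPKM to 16.1, 11.9 and 13.7 FPKM, again with no overlap (log2 change -0.89, limma adjusted p = 3.79e-11). ZNF326, of the DBIRD complex that couples elongation to splicing, fell by 0.23. ZNF638 and ZNF706 were not called, with log2 changes of -0.06 and -0.11, but were called lower with summed FPKM. In C312S the same members of this list were called in the same directions. The log2 changes there were 0.26 for ZNF593 and ZNF622, 0.17 for ZNF346, -0.29 for ZNF326 and -0.23 for ZNF598. That of ZNF346 was not called with summed FPKM (limma adjusted p = 0.0616), and all 7 were lower in C312S with spike-ins.

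Of 4 mitosis and genome stability members, ZNF207 rose by 0.31 and ZNF451, a SUMO ligase, by 0.62 in the same comparison, while ZNF384 fell by 0.37 and ZNF830 was at 0.05 and not called. That split of 2 and 1 was the same with summed FPKM and 0 and 4 with spike-ins. The ZNF207 libraries went from 167, 167 and 166 FPKM to 195, 215 and 209 FPKM in WT. In C312S they went from 173, 166 and 180 to 208, 209 and 219 FPKM, a log2 change of 0.29. ZNF451 rose by 0.23 in C312S (not called with summed FPKM), and ZNF384 and ZNF830 were not called there.

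Of 10 members in chromatin and transcription complexes, 2 rose and 6 fell with the 2 µM combination against THZ531 in WT, which became 0 and 6 with summed FPKM and 0 and 10 with spike-ins. ZNF335, of a histone H3 lysine methyltransferase complex, fell by 0.89. ZNF592 and ZNF687, which bind each other and ZMYND8, fell by 0.67 and 0.45. ZNF609, a partner of the cohesin loader, fell by 0.65, ZNF318 by 0.34 and ZNF281 by 0.21. The rises were in ZNF217, a corepressor component, by 0.22, and in ZNF274, a KRAB protein that binds ZNF genes, by 0.16, and neither was called with summed FPKM. ZNF143, an activator at promoters, was at 0.04 and not called, and ZNF644 was at 0.15 and not called. In C312S, 0 of the 10 rose and 4 fell (0 and 4 with summed FPKM, 0 and 10 with spike-ins): ZNF335 by 0.35, ZNF318 by 0.28, ZNF592 by 0.23 and ZNF609 by 0.16.

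Adding THZ531 to YKL in WT cells gave more rises than falls among members with the KRAB pattern and more falls than rises among those without it, in the deposited scale. At 500 nM, 51 members rose and 35 fell against YKL alone, where 25.5% of all tested genes were higher and 22.3% lower. The split was 28 and 42 with summed FPKM (36.5% of the calls over all genes higher) and 83 and 6 with spike-ins (91%). Of the 66 with the pattern 28 rose and 6 fell, and of the 85 without it 22 rose and 28 fell. These were 18 and 9, and 10 and 32, with summed FPKM, and 45 and 0, and 37 and 5, with spike-ins. At 2 µM, 68 members rose and 52 fell, against 36.3% and 34.7% of all genes. The split was 23 and 80 under summed FPKM (20.9% of the calls over all genes higher) and 0 and 146 under spike-ins (0.161%). In the deposited scale at 2 µM, 40 with the pattern rose and 10 fell, and 27 without it rose and 41 fell (14 and 22, and 9 and 57, with summed FPKM, and 0 and 62, and 0 and 82, with spike-ins), with median log2 changes of 0.27 and -0.13. After trends with transcript length and GC content were removed, these were 33 and 9 with the pattern and 21 and 28 without it, with medians of 0.13 and -0.04. With summed FPKM the medians at 2 µM were -0.03 and -0.44, and with spike-ins -0.63 and -1.04, so the balance within each subset moved with the scaling while the median with the pattern stayed above the other. The difference between the subsets was not tested, and the GC content of their transcripts differs as given above.

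The KRAB genes ZNF33B (4.93, 5.27 and 5.53 FPKM with YKL 500 nM, 8.71, 8.18 and 9.32 with the combination) and ZNF182 (3.89, 3.70 and 4.11, then 6.39, 6.03 and 6.51) had the largest rises at 500 nM, with log2 changes of 0.64 and 0.58. ZNF585A and ZNF675, also with the pattern, rose by 0.57 and 0.54. The largest falls were in members without it: ZNF276 from a mean of 12.5 to 7.36 FPKM (-0.69), ZNF76 from 13.6 to 8.36 FPKM (-0.64), ZNF629 from 7.98 to 5.15 FPKM (-0.55) and ZNF75A (-0.51). At 2 µM ZNF276 fell from 13.5, 12.5 and 12.3 FPKM to 5.72, 4.24 and 5.67 FPKM, a log2 change of -1.16 ± 0.08 (limma adjusted p = 4.27e-13). ZNF358 fell from 11.3 to 5.01 FPKM (-1.04), ZNF629 from 7.22 to 3.12 FPKM (-0.997), and ZNF142 by 0.87. ZNF410, an activator of the NuRD component CHD4, rose from 18.0, 17.5 and 18.1 FPKM to 35.4, 37.9 and 34.2 FPKM, a log2 change of 0.96 ± 0.06 (limma adjusted p = 2.83e-14) that became -0.01 under spike-in scaling. ZNF695 went from 8.44 to 16.7 FPKM (0.90), ZNF277 by 0.84 and ZNF124 from 5.51 to 10.2 FPKM (0.78), and under spike-in scaling they were at -0.03, -0.08 and -0.11.

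**Figure D4:**
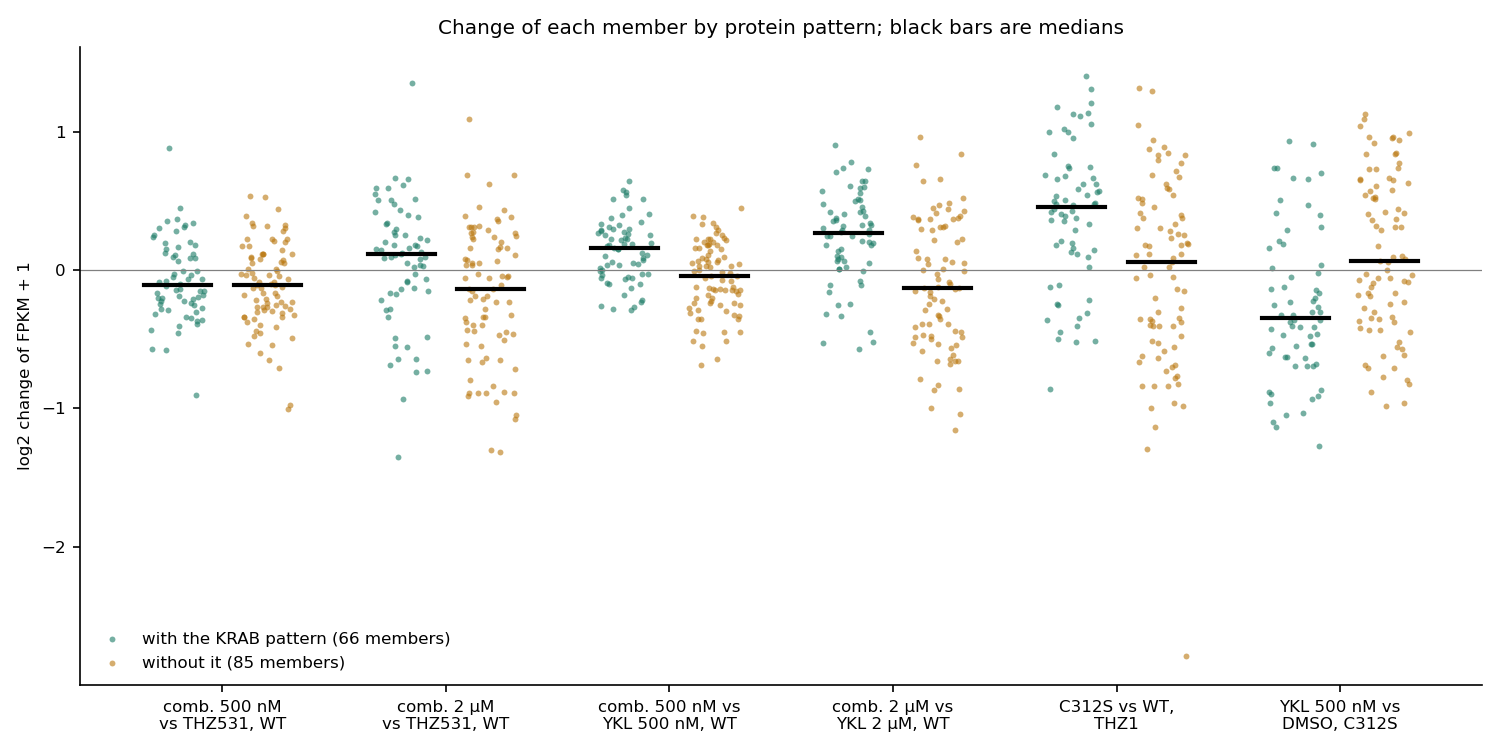
Log2 change of each member in 6 comparisons, for the 66 members with the KRAB pattern (green) and the 85 without it (ochre), with medians as black bars. The green medians lie above the ochre in 4 comparisons, such as 0.27 against -0.13 for the 2 µM combination against YKL 2 µM in WT. They are nearly equal, at -0.112 and -0.110, for the 500 nM combination against THZ531 in WT. For YKL 500 nM against DMSO in C312S the green median lies below the ochre.

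Few members were called between the YKL doses in WT cells. Against 500 nM, 2 members were higher and 3 lower at 2 µM, where 2.14% of all tested genes were higher and 4.04% lower. The splits were 2 and 2 with summed FPKM (66.4% of the calls over all tested genes higher) and 151 and 0 with spike-ins (99.9%). With spike-ins 89.8% of all tested genes were called. ZNF680 (4.49, 4.14 and 5.19 FPKM, then 5.84, 6.17 and 6.50) and ZNF267 (6.43, 6.68 and 7.96 FPKM, then 9.01, 8.88 and 9.86) each rose by 0.36. Their libraries did not overlap, which was a condition for naming them. The same held for 30.0% of all tested genes and 27.5% of members. ZNF511 (34.6 to 28.8 FPKM), ZNF331 (4.08 to 3.32) and ZNF410 (21.1 to 17.9) fell by 0.25, 0.23 and 0.22, and under spike-in scaling they were at 0.28, 0.20 and 0.30. These 5 calls were close to the limit: leaving out a single library of either dose left 0 to 4 of the 153 members called. ZNF146 was at 26.3 ± 1.1 FPKM (SD, n = 3) at 500 nM and 25.7 ± 0.66 at 2 µM, and ZNF692 at 4.54 ± 0.29 and 3.98 ± 0.25.

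Few members were called between the lines under THZ531. In C312S 13 were higher and 4 lower than in WT, where 17.0% of all tested genes were higher and 13.5% lower. The split was 3 and 14 under summed FPKM and 11 and 1 with spike-ins, and 22 and 6 after trends with GC content and length were removed. Of the calls over all tested genes, 25.6% were higher with summed FPKM and 77.4% with spike-ins. By far the largest difference was in ZNF35, at 9.97, 10.4 and 10.4 FPKM in WT and 0.399, 0.314 and 0.308 FPKM in C312S, a log2 change of -3.07 ± 0.09 (limma adjusted p = 2.37e-23). ZNF35 was the lowest member in all 7 C312S groups, with means of 0.340 to 0.588 FPKM, and was at 7.28 to 13.0 FPKM in the 7 WT groups. No WT library of ZNF35 was below 6.65 FPKM and no C312S library above 0.806 FPKM. The next differences were smaller: ZNF367 was higher in C312S by 0.46, ZNF76 by 0.38, ZNF32 by 0.34 and ZNF672 by 0.33, and ZNF277, ZNF436 and ZNF783 were lower by log2 changes of -0.28, -0.27 and -0.24. None of the last 3 was called under spike-in scaling. ZNF32 had an adjusted p of 0.0548 with summed FPKM and 0.0713 without C312S replicate 1. ZNF277 lost its call without any of the 3 WT libraries or without C312S replicate 1 or 2 (limma adjusted p from 0.0565 to 0.106), and ZNF783 without WT replicate 3 (adjusted p = 0.0679).

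Under THZ1, 86 members were higher in C312S than in WT and 47 lower, against 41.1% of all tested genes higher and 37.9% lower. The split was 43 and 74 with summed FPKM (27.1% of the calls over all tested genes higher) and 115 and 4 with spike-ins (92%), and both groups are among those whose scale stands apart. Of members with the KRAB pattern 47 were higher and 12 lower, and of those without it 37 and 35. These were 25 and 23, and 17 and 51, with summed FPKM, and 59 and 0, and 54 and 4, with spike-ins. With GC content and length trends removed they were 43 and 8, and 39 and 28. ZNF273 was at 3.13, 4.28 and 3.73 FPKM in WT and 11.8, 10.8 and 11.7 FPKM in C312S, a log2 change of 1.40 ± 0.09 (limma adjusted p = 1.12e-14). ZNF593 was at 101, 99.8 and 98.2 FPKM in WT and 228, 248 and 275 FPKM in C312S, a change of 1.32. ZNF254 and ZNF410 were higher by 1.31 and 1.29. Below WT, beside ZNF35 at -2.79, were ZNF276 (7.45 against 2.43 FPKM, -1.29), ZNF580 (38.2 against 16.8 FPKM, -1.14) and ZNF362 (6.19 against 2.61 FPKM, -0.99).

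Against WT DMSO, which chose the members, the WT values are a description. With YKL 500 nM 24 members were higher and 74 lower (31.3% and 31.7% of all tested genes), with 60 and 29 under summed FPKM and 0 and 144 with spike-ins. With YKL 2 µM these were 24 and 71 (31.8% and 33.5%), then 70 and 23, and 9 and 68. With THZ531 they were 38 and 30 (24.0% and 22.9%), then 50 and 25, and 17 and 19, and 18 and 39 with GC content and length trends removed. With THZ1 they were 34 and 79 (34.0% and 34.8%), then 21 and 97, and 0 and 153. The 500 nM combination gave 36 and 64 (34.0% and 34.2%), then 57 and 51, and 6 and 109, and the 2 µM combination 57 and 65 (38.9% and 38.1%), then 54 and 66, and 0 and 146. Of the calls over all tested genes with YKL 500 nM, 77.1% were higher with summed FPKM and 5.15% with spike-ins. These shares were 78.5% and 35% for YKL 2 µM, 65.5% and 56.3% for THZ531, and 32.5% and 0.257% for THZ1. For the combinations they were 67.2% and 13.5% at 500 nM, and 47.4% and 2.55% at 2 µM. Among the 238 other ZNF symbols, below the limit, 75 were higher and 41 lower with YKL 500 nM (122 and 20 with summed FPKM, 9 and 160 with spike-ins).

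The members farthest from WT DMSO were largely those already described. ZNF692 went from 12.6, 12.2 and 13.0 FPKM to 4.62, 4.77 and 4.22 FPKM with YKL 500 nM, and ZNF589 from 26.2, 24.1 and 24.6 to 12.01, 11.46 and 12.76 FPKM. ZNF146 was at 25.1, 27.1 and 26.7 FPKM with YKL 500 nM and at 28.5, 29.2 and 29.7 FPKM with THZ1. THZ531 alone left these 3 near DMSO, with ZNF146 at 56.0 ± 1.4 FPKM (SD, n = 3), ZNF692 at 11.3 ± 0.71 and ZNF589 at 26.9 ± 0.62. THZ531 gave its largest falls in ZNF276 (-0.88), ZNF76 (-0.85), ZNF691 (-0.63) and ZNF358 (-0.62), and THZ1 in ZNF691 (-1.43) and ZNF76 (-1.33). The largest higher values with THZ1 were in ZNF263 (1.10), ZNF211 (1.00), ZNF227 (0.83) and ZNF23 (0.79), and all 4 were negative under spike-in scaling, from -1.32 to -1.08.

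In C312S, every treatment was compared with the libraries labelled C312S DMSO, whose scale stands apart. All these comparisons share that reference, so a shift in it enters each of them and cannot be told apart from an effect of the treatment. Whether those libraries are what their label says cannot be checked from the values. With YKL 500 nM 55 members were higher and 77 lower (36.9% and 39.6% of all tested genes), with 90 and 24 under summed FPKM and 140 and 0 with spike-ins. YKL 2 µM gave 57 and 68 (36.6% and 39.2%), then 100 and 27, and 142 and 0. THZ531 gave 58 and 76 (34.6% and 39.5%), then 95 and 26, and 153 and 0. THZ1 gave 48 and 53 (33.9% and 29.7%), then 31 and 62, and 11 and 60. The 500 nM combination gave 56 and 74 (35.0% and 38.4%), then 99 and 15, and 150 and 0, and the 2 µM combination 51 and 66 (32.8% and 35.9%), then 97 and 16, and 132 and 1. For all but THZ1 the balance of these counts turned over under both other scalings. The calls over all tested genes moved too: with YKL 500 nM 79.8% were higher with summed FPKM and 99.9% with spike-ins. These shares were 80.8% and 99.8% for YKL 2 µM, 81.1% and 100% for THZ531, and 40.3% and 19.7% for THZ1. For the combinations they were 84.6% and 100% at 500 nM, and 84.4% and 99.3% at 2 µM.

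C312S DMSO itself differed from WT DMSO in most members, 83 higher and 54 lower (41.3% and 37.9% of all tested genes). C312S DMSO had 25 higher and 91 lower under summed FPKM (21.8% of the calls over all genes higher) and 0 and 152 with spike-ins (0.379%). ZNF32 was at 38.3, 38.8 and 33.2 FPKM there, above all other groups, and ZNF589 at 13.81, 14.25 and 14.04 FPKM, below the other 6 C312S groups, which had means of 21.7 to 27.2 FPKM. ZNF142 was at 3.33 ± 0.31 FPKM (SD, n = 3) in C312S DMSO and 2.88 ± 0.084 in C312S THZ1, and at 5.83 to 8.43 FPKM in the other C312S groups. With YKL 500 nM against C312S DMSO, ZNF142 was higher by 1.12, ZNF276 by 1.09, ZNF512B by 1.04 and ZNF687 by 0.99. ZNF680 was lower by 1.27, ZNF92 by 1.13, ZNF675 by 1.10 and ZNF273 by 1.05, and none of these lower values was called under spike-in scaling. Of members with the KRAB pattern 16 were higher and 45 lower in that comparison, and of those without it 39 were higher and 30 lower. These became 13 and 30, and 34 and 25, with GC content and length trends removed. The balance with the pattern turned over under both scalings: with summed FPKM the counts were 27 and 15 with it and 61 and 9 without it, and with spike-ins 55 and 0, and 83 and 0.

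Of 23 tested partners of KRAB proteins and other heterochromatin genes, 4 rose and 11 fell when 500 nM YKL was added to THZ531 in WT, against 31.5% of all genes higher and 29.7% lower. That balance depended on the scaling, with 6 and 5 under summed FPKM (64.7% of the calls over all genes higher) and 0 and 21 with spike-ins (9.23%). At 2 µM 5 rose and 12 fell, against 38.3% and 35.3% of all genes. The split was 4 and 14 under summed FPKM (42.2% of the calls over all genes higher) and 0 and 23 with spike-ins (2.03%). TRIM28, the KRAB corepressor, fell by 0.51 at 500 nM (limma adjusted p = 4.30e-08) and by 0.90 at 2 µM (adjusted p = 1.04e-13). The maintenance DNA methylation genes DNMT1 and UHRF1 fell by 1.28 and 1.40 at 2 µM, and CHAF1A, a histone chaperone subunit, by 1.12. SETDB1 was not called at either dose, with changes of -0.10 and 0.08, but was called lower at both under spike-in scaling (-0.54 and -1.06). PPHLN1, of the HUSH complex, rose by 0.49 and 0.88 (0.04, not called, and -0.29 under spike-in scaling). The lines differed at 2 µM by 0.78 for TRIM28, 0.94 for DNMT1 and 1.04 for UHRF1 (limma adjusted p from 1.25e-13 to 2.29e-08). Among related families, 6 of 36 ZBTB genes rose and 20 fell at 2 µM in WT, and 13 of 32 ZFP, ZKSCAN and ZSCAN genes rose and 8 fell. With summed FPKM these were 3 and 23, and 12 and 10, and with spike-ins 0 and 36, and 0 and 29. The other 238 ZNF symbols gave 114 higher and 49 lower, then 98 and 59, and 3 and 198.

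Similar copies are common among clustered ZNF genes. Among those named, ZNF92, ZNF107, ZNF138, ZNF273 and ZNF680 lie on chromosome 7, and ZNF254 and ZNF675 on chromosome 19, but their similarity was not measured. How reads shared between similar genes were divided is nowhere stated in the sources used, so the values of such genes are uncertain.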

How the data were processed

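Polyadenylated RNA was prepared with a stranded mRNA kit, per the labels' protocols. HISAT2 2.0.4, Cufflinks 2.2.1, Cuffnorm and the build hg19 appear in the submitters' processing notes. The deposited values are the authors' FPKM for 26228 genes and 92 spike-in transcripts, and their filters and normalization settings are not given in the sources used here. Read counts are not part of the table, so the depth is unknown, and no count test or counting interval was used. All 42 columns were matched to samples through their labels.

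Genes at 1 FPKM or more in 3 or more libraries, 12816 in number, entered limma 3.58.1 (R 4.3.3) on log2(FPKM + 1), which understates changes of low genes, with 14 group means, a trend on expression and Benjamini-Hochberg adjustment at 0.05 within each of 24 comparisons. On simulated data for YKL 2 µM against 500 nM in WT, with 50 of 12816 genes changed at each size, the test recovered 44% at log2 0.25, 94% at 0.5, 100% at 1 and 98% at 2, with 6 false among 174 calls. Changes were planted only in genes above a set expression level, and the noise was drawn from a normal distribution. These rates do not extend to low genes or to comparisons in which most genes are called. Spike-in scaling used 23 transcripts. Fingers and the KRAB pattern came from GENCODE release 29 coding sequences and not, as planned, from RefSeq proteins, and promoters from RefSeq. Python 3.11.15 with pandas 2.3.3 and matplotlib 3.10.9 made counts and plots.

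The members, the gene lists and the tests were chosen with earlier results of these data known. Named per comparison were up to 4 rises and 4 falls that passed the test with libraries apart (for differences between lines, passing the test alone), members of the role lists, the 5 highest members and the partner list. Alternatives were other scalings, pseudocounts of 0.1 and 5, other filters on low values, a replicate block, removal of GC content and length trends, only the groups compared, and leaving out each library. Lowest correlation between libraries of a group was 0.97, and 0 pairs were identical.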

Additional observations from a re-analysis of the deposited data

Results flagged for a closer look

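The effect of adding YKL to THZ531 differed between C312S and WT for the following members, by a limma test of the difference itself, given as C312S minus WT on the log2 scale. At 500 nM the differences were 0.87 for ZNF692, 0.83 for ZNF589, 0.80 for ZNF146, 0.64 for ZNF202, -0.76 for ZNF226, -0.51 for ZNF580, -0.46 for ZNF32 and -0.36 for ZNF211. At 2 µM they were 1.09 for ZNF589, 0.94 for ZNF692, 0.92 for ZNF142, 0.84 for ZNF146, -0.99 for ZNF226, -0.79 for ZNF32, -0.64 for ZNF277 and -0.64 for ZNF585A. The differences of ZNF580, ZNF32, ZNF211, ZNF277 and ZNF585A were not called under spike-in scaling.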

How the results depend on the processing

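With scaling to summed FPKM the balance of higher and lower members turned over in 15 of 24 comparisons, with these numbers of members called: 89 for WT: YKL 500 nM against DMSO, 93 for WT: YKL 2 µM against DMSO, 108 for WT: combination 500 nM against DMSO, 116 for C312S against WT under DMSO, 70 for WT: combination 500 nM against YKL 500 nM, 103 for WT: combination 2 µM against YKL 2 µM, 17 for C312S against WT under THZ531, 117 for C312S against WT under THZ1, 114 for C312S: YKL 500 nM against DMSO, 127 for C312S: YKL 2 µM against DMSO, 121 for C312S: THZ531 against DMSO, 114 for C312S: combination 500 nM against DMSO, 113 for C312S: combination 2 µM against DMSO, 57 for C312S: combination 2 µM against THZ531, 48 for adding YKL 500 nM to THZ531: C312S minus WT. With spike-in scaling it turned over, or the number moved by over 1.5 times, in 12: 36 for WT: THZ531 against DMSO, 152 for C312S against WT under DMSO, 151 for WT: YKL 2 µM against YKL 500 nM, 146 for WT: combination 2 µM against YKL 2 µM, 140 for C312S: YKL 500 nM against DMSO, 142 for C312S: YKL 2 µM against DMSO, 153 for C312S: THZ531 against DMSO, 150 for C312S: combination 500 nM against DMSO, 133 for C312S: combination 2 µM against DMSO, 133 for C312S: combination 500 nM against THZ531, 151 for C312S: combination 2 µM against THZ531, 15 for adding YKL 500 nM to THZ531: C312S minus WT. With GC content and length trends removed the same held in 4: 57 for WT: THZ531 against DMSO, 8 for WT: YKL 2 µM against YKL 500 nM, 28 for C312S against WT under THZ531, 2 for C312S: combination 500 nM against THZ531. Median-ratio scaling turned over C312S: combination 2 µM against DMSO, with 113 called. These rules do not mark a split that widened in the same direction. With spike-ins that was so for WT: combination 2 µM against THZ531, as given above, so a comparison not listed is not thereby stable. WT: YKL 2 µM against YKL 500 nM had 3 members called with no filter on low values and 2 when only the groups compared were fitted. Of 181 named changes, 34 turned sign, all under spike-in scaling and none elsewhere, in WT: YKL 500 nM against DMSO for ZNF106 (-0.041), WT: THZ1 against DMSO for ZNF263 (-1.21), ZNF211 (-1.08), ZNF227 (-1.32), ZNF23 (-1.28), WT: combination 2 µM against DMSO for ZNF512 (-0.18), ZNF28 (-0.14), ZNF23 (-0.15), C312S against WT under DMSO for ZNF680 (-0.23), ZNF195 (-0.36), ZNF32 (-0.40), ZNF138 (-0.40), WT: YKL 2 µM against YKL 500 nM for ZNF511 (0.28), ZNF331 (0.20), ZNF410 (0.30), WT: combination 2 µM against THZ531 for ZNF32 (-0.045), ZNF512 (-0.47), ZNF277 (-0.41), WT: combination 2 µM against YKL 2 µM for ZNF410 (-0.011), ZNF695 (-0.031), ZNF277 (-0.080), ZNF124 (-0.11), C312S: THZ531 against DMSO for ZNF32 (0.48), ZNF680 (0.61), ZNF593 (0.79), ZNF410 (0.79), C312S: combination 500 nM against DMSO for ZNF32 (0.19), ZNF680 (0.19), ZNF273 (0.23), ZNF138 (0.37), C312S: combination 2 µM against THZ531 for ZNF576 (-0.14), ZNF584 (-0.31), ZNF616 (-0.33), ZNF226 (-0.34). With each library left out in turn, the numbers called ranged from 47 to 63 in WT: THZ531 against DMSO, from 118 to 125 in WT: combination 2 µM against DMSO, from 0 to 4 in WT: YKL 2 µM against YKL 500 nM, from 9 to 13 in C312S against WT under THZ531, from 90 to 95 in C312S: THZ1 against DMSO, from 0 to 1 in C312S: combination 500 nM against THZ531, from 42 to 54 in C312S: combination 2 µM against THZ531. Some single libraries also turned over the balance of higher and lower members, in 1 comparison for each library left out. In WT these were DMSO replicate 1, THZ531 replicate 2, THZ531 replicate 3 and combination 2 µM replicate 1. In C312S they were DMSO replicate 1 and combination 2 µM replicate 1. The replicate numbers did not pair the libraries: deviations of same-numbered libraries correlated between -0.161 and 0.248, and in 0 of 22 comparisons of 2 groups was every pair above 0.1 or every library closest to its own number. Without a shift in direction, 5 of the 181 calls were lost with GC content and length trends removed, 5 with only the groups compared, 3 with no filter on low values, 2 with summed FPKM and 27 with spike-ins. With the number as a block, all 24 counts stayed within 1.5 times with the same balance, and of the 181 named changes the call of ZNF331 between the YKL doses was lost (log2 change -0.23, limma adjusted p = 0.0598). Without the C312S DMSO and THZ1 libraries, a check added after the data were seen, the counts of the 16 comparisons that do not use them kept their balance and stayed within 1.5 times. The cause of these differences between settings was not tested. With no read counts, depth cannot be weighed.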
